A study of Mus musculus with 19 samples.

Results

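Cathepsins are the main proteases of the lysosome, and cystatin C is the secreted protein that inhibits most of the cysteine cathepsins. The genes described here are Ctsa, Ctsb, Ctsc, Ctsd, Ctsh, Ctsl, Ctss, Ctsz and Cst3, which were listed by name and matched by symbol to the mouse gene identifiers. All 9 were in both deposited tables, which hold 13783 genes for sorted brain cells and 15634 for hippocampus. The rule names genes and no measured value, although the set was proposed with earlier results of these data known.

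Cysteine cathepsins (B, C, H, L, S and Z) cut proteins with a cysteine in the active site, cathepsin D with a pair of aspartates, and cathepsin A with a serine. They degrade material taken up by endocytosis and autophagy, and in antigen-presenting cells cathepsins S and L trim the invariant chain from MHC class II molecules. Microglia, the resident macrophages of the brain, are known for high levels of Ctss, Ctsd and Cst3.

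All mice had received 1100 cGy of split-dose total-body irradiation and 5000000 T-cell-depleted (TCD) marrow cells. Mice of the graft-versus-host disease (GVHD) groups were also given 500000 splenic T cells, and TCD mice were given none. Brain cells sorted on day 70 made up donor cells of GVHD mice (6 libraries, labelled bone marrow-derived macrophages), host cells of GVHD mice (4 libraries, labelled microglia) and host cells of TCD mice (3 libraries, labelled microglia). On day 80 whole hippocampus was taken from GVHD mice (3 libraries) and TCD mice (3 libraries). Mouse strains, ages, sexes, the sorting gates and any pooling of animals are not given in the sources used here, and nothing says that libraries of a group came from separate animals, so the p-values measure the spread between these libraries.

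Values are normalised counts as deposited, with an estimated 7899941 to 35843239 reads per sorted library and 16673615 to 18546935 per hippocampus library. The labels were checked with marker lists. The summed level of 9 homeostatic microglia genes such as P2ry12 and Tmem119 was 12722 to 18514 in donor libraries, 43582 to 52560 in GVHD host libraries and 50474 to 63126 in TCD host libraries. That of 9 marrow-derived macrophage genes such as Ms4a7 and Lyz2 was 74390 to 104032 in donor libraries, 3303 to 6653 in GVHD host libraries and 2017 to 4004 in TCD host libraries. Most of the donor sum was Apoe, at 69531 ± 12591 in donor and 3851 ± 1265 in GVHD host libraries (SD). Lyz2 was at 14580 ± 2986 in donor and 639 ± 193 in GVHD host libraries, and Ms4a7 at 865 ± 147 in donor and 22.1 ± 9.64 in GVHD host libraries. In donor against GVHD host libraries 8 of the 9 microglia genes were lower and all 9 macrophage genes higher, and only Ly6c2 was at 0 in any library, in both host groups. One library needs care throughout. TCD host library 1 carries Syn in its description where the other TCD host libraries carry TCD, so its transplant group is uncertain, and its values for Ctsd, Ctss and Cst3 lay far from those of the other TCD host libraries. Its summed level of 7 border-associated macrophage genes such as Mrc1 was 193, against 33.2 and 33.3 in TCD host libraries 2 and 3, and that of 8 measured neutrophil genes was 111, against 17.3 and 1.81. The part of these cells in its values was not tested. The titles also give each sorted library one of a pair of API numbers, whose meaning is not stated: the lower one marks donor library 1, GVHD host library 1 and TCD host library 1, and the higher one all others. With 1 library a group, the lower number gives no comparison of its own.

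The genes lie on 6 chromosomes of GRCm38. Ctsa (ENSMUSG00000017760, chromosome 2, 164832873 to 164841032), Cst3 (ENSMUSG00000027447, chromosome 2, 148871722 to 148875692) and Ctsz (ENSMUSG00000016256, chromosome 2, 174427493 to 174439039) share a chromosome but are not neighbours. Ctsc (ENSMUSG00000030560, 88278085 to 88310888) and Ctsd (ENSMUSG00000007891, 142375911 to 142388038) are both on chromosome 7. Ctss (ENSMUSG00000038642) is on chromosome 3, 95526786 to 95556403, Ctsh (ENSMUSG00000032359) on chromosome 9, 90054152 to 90076089, Ctsl (ENSMUSG00000021477) on chromosome 13, 64359337 to 64370890, and Ctsb (ENSMUSG00000021939) on chromosome 14, 63122462 to 63145923.

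Short stretches upstream of the RefSeq starts (GRCm38.p6) are shown where a motif searched for on both strands was found. Of the genes shown, Ctsc, Ctsl and Ctsa differed between donor and GVHD host cells by the test given below. Ctss and Ctsd did not pass it. The motifs were CACGTG, the E-box bound by the lysosomal regulators TFEB and TFE3, GAAA followed by any 2 bases and GAAA, the core of the interferon-stimulated response element, and GAGGAAG, a form of the site of the macrophage factor PU.1. RefSeq promoter entries were matched for 7 of the 9 genes, all but Ctsb and Ctsh, giving 8 windows of 250 bases, 2 of them for Ctsa. Capitals mark the motif, and for Ctsc they show it on the opposite strand.
Ctss, chr3:95526755-95526784, plus strand: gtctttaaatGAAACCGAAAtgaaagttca
Ctsc, chr7:88277877-88277906, plus strand: ccactttccttCTTCCTCctagtggtgcct
Ctsc, chr7:88277924-88277953, plus strand: tcactaactaaCTTCCTCaggccacctcgt
Ctsd, chr7:142388048-142388077, minus strand: tccccCACGTGacctgtatccagtcattct
Ctsd, chr7:142387908-142387937, minus strand: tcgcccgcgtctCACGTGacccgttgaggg
Ctsl, chr13:64370739-64370768, minus strand: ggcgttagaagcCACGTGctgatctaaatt
Ctsa, chr2:164833743-164833772, plus strand: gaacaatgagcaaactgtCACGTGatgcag

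The Ctss motif begins 21 bases before the start, and this motif was found in 2.98% of all 32851 RefSeq windows of this length. CACGTG begins 245 and 98 bases before the Ctsd start, 236 before the Ctsl start and 12 before one of the Ctsa starts, and was in 6.02% of all windows. GAGGAAG ends 191 and 144 bases before the Ctsc start, read along that gene, and was in 10.6% of all windows. None of the 3 motifs was found in the 250 bases before the RefSeq starts of Cst3 and Ctsz or before the other start of Ctsa. All these starts are those of RefSeq, and some windows lie inside the gene bounds given above. The Ctsl stretch, the Ctsa stretch and the Ctsd stretch with the motif at 98 bases lie within those bounds. Part of the Cst3 window does so too. A match is a run of letters only, and no binding was measured.

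The first question is how donor-derived macrophages of the GVHD brain differ from the resident microglia sorted as host cells from GVHD mice. Donor macrophages had more Ctsb and Ctsc transcript than GVHD host microglia (8847 ± 656 against 4500 ± 365 and 5653 ± 424 against 2123 ± 573 normalised counts, SD, n = 6 and 4) and less Ctsl and Cst3 (181 ± 16.4 against 398 ± 66.3 and 5171 ± 1834 against 21670 ± 5950). Of the 9 genes, 3 were higher in donor macrophages (Ctsb, Ctsc and Ctsh) and 3 were lower (Ctsa, Ctsl and Cst3) by limma with Benjamini-Hochberg adjustment, at an adjusted p under 0.05. Over all 13086 tested genes the same test called 19.4% higher and 19.2% lower, so a call was common in this comparison. The median log2 fold change of the 9 genes was -0.22, against 0.044 over all tested genes. The summed level of the border-associated macrophage genes was 647 to 1260 in donor libraries and 29.7 to 62.4 in GVHD host libraries, with 5 of the 7 genes higher. Among these 5, Lyve1 and Cd163 averaged only 0.0158 ± 0.0316 and 0.341 ± 0.289 in GVHD host libraries (SD), so a call of lower was hardly possible. In donor libraries they averaged 5.50 ± 3.27 and 8.44 ± 5.39. Most of the donor sum was Mrc1 (826 ± 149, SD, n = 6), which is in the marrow-derived list too, and the part of these cells in the differences was not tested. Each library is a bulk RNA sample, in which fewer cells of a type and less RNA per cell cannot be told apart.

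**Figure D1:**
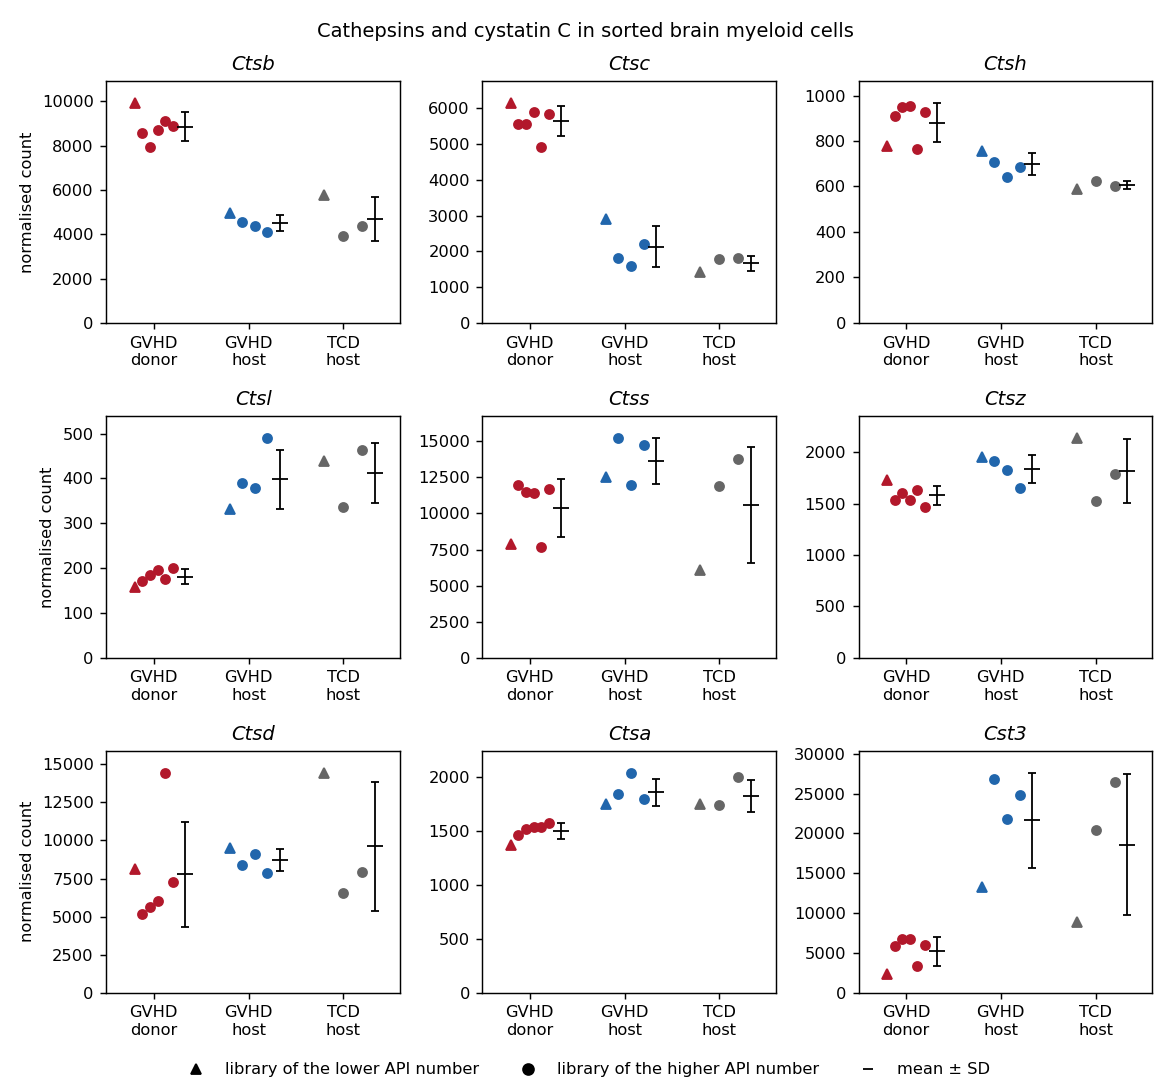
Normalised count of each gene in every sorted library, for GVHD donor macrophages (left), GVHD host microglia and TCD host microglia (right). Triangles are libraries of the lower API number, circles those of the higher one, and bars mean ± SD. For Ctsb, Ctsc and Ctsh all donor points lie above those of both host groups, and for Ctsl, Ctsa and Cst3 all lie below.

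Ctsb encodes cathepsin B, an abundant lysosomal endo- and exopeptidase. Its normalised count was lowest at 7934, median 8794 and highest at 9917 in donor macrophages, against 4961, 4572, 4373 and 4093 in GVHD host microglia. Every donor library exceeded every host library. The log2 fold change was 1.00 ± 0.10 (SE, limma adjusted p = 5.77e-06), and 0.99 within the libraries of the higher API number alone (adjusted p = 7.3e-05).

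Ctsc encodes cathepsin C, or dipeptidyl peptidase I, which activates the granule serine proteases of neutrophils and cytotoxic lymphocytes. Donor macrophages had 4910 to 6147 normalised counts with a median of 5704, and GVHD host microglia had 2893, 1802, 1593 and 2203. The groups did not overlap, and GVHD host library 1 was the highest of its group. Ctsc was higher by 1.46 ± 0.15 on the log2 scale (SE, limma adjusted p = 6.21e-06) and by 1.58 within the higher API number (adjusted p = 4.73e-06). Beside this, the summed level of 8 measured neutrophil genes was 21.0 to 608 in donor libraries and 0.446 to 19.7 in GVHD host libraries, and its part in the Ctsc difference was not tested.

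Ctsh encodes cathepsin H, an aminopeptidase. It had 766 to 956 normalised counts with a median of 919 in donor macrophages, against 757, 707, 642 and 688 in GVHD host microglia. The lowest donor value was just above the highest host value. The log2 fold change of 0.33 ± 0.09 (SE) passed the test (limma adjusted p = 0.0127), and within the higher API number it was 0.41 (adjusted p = 0.00841). The call was lost with the description number as a replicate block (0.29, adjusted p = 0.0796), with rescaling to equal library totals (0.15, adjusted p = 0.241) and without GVHD host library 3 (0.28, adjusted p = 0.0515).

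Ctsl encodes cathepsin L, a broad endopeptidase and the least abundant of the 9 in sorted cells. Donor macrophages had 157 to 201 normalised counts with a median of 180.1, while GVHD host microglia had 333, 389, 380 and 490.2. The highest donor value was well below the lowest host value. Ctsl was lower by a log2 fold change of -1.14 ± 0.12 (SE, limma adjusted p = 7.68e-06), with -1.17 within the higher API number (adjusted p = 4.1e-05).

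Cst3, which encodes cystatin C, showed the largest difference of the 9. Its normalised count was 2369 to 6722 with a median of 5918 in donor macrophages, against 13308, 26832, 21769 and 24772 in GVHD host microglia. Donor libraries 1 and 5 were the lowest donor libraries, at 2369 and 3405, and GVHD host library 1 was the lowest host library. The log2 fold change was -2.21 ± 0.20 (SE, limma adjusted p = 1.76e-06), and -2.13 within the higher API number (adjusted p = 4.13e-05). Over 26 alternative settings the fold change ran from -3.06 to -2.07 and the call held in each. Cystatin C is also made by astrocytes. The summed level of 6 measured astrocyte genes was 47.7 to 86.4 in donor libraries, 338 to 448 in GVHD host libraries and 247 to 300.4 in TCD host libraries. Most of the host level was Slc1a3, at 29.1 ± 10.04 in donor and 358 ± 51.2 in GVHD host libraries, while Gfap was at 16.3 ± 5.95 in donor and 6.01 ± 1.05 in GVHD host libraries. Their part in the Cst3 difference was not tested.

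Ctsa encodes cathepsin A, the serine carboxypeptidase that also protects lysosomal beta-galactosidase and neuraminidase. Donor libraries had 1367 to 1572 normalised counts with a median of 1529, against 1751, 1843, 2039 and 1792 in GVHD host microglia, without overlap. The log2 fold change of -0.32 ± 0.08 (SE, limma adjusted p = 0.00674) was -0.31 within the higher API number (adjusted p = 0.0292). The call was lost under the replicate block (-0.31, adjusted p = 0.057) and under quantile normalisation (-0.21, adjusted p = 0.0815).

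Ctss, Ctsz and Ctsd did not pass the test. Ctss encodes cathepsin S, which works at neutral as well as acid pH. Donor macrophages had 7651 to 11967 normalised counts with a median of 11467, and GVHD host microglia had 12551, 15235, 12006 and 14746. The groups did not overlap, by a narrow margin, and the log2 fold change was -0.46 ± 0.18 (SE, limma adjusted p = 0.0618) and -0.38 within the higher API number (adjusted p = 0.148). It passed under the replicate block (-0.52, adjusted p = 0.0389), with equal library totals (-0.64, adjusted p = 0.0158), under quantile normalisation (-0.89, adjusted p = 0.00216), without TCD host library 1 (-0.44, adjusted p = 0.0474) and without GVHD host library 3 (-0.57, adjusted p = 0.0418).

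Ctsz encodes cathepsin Z, a carboxypeptidase also called cathepsin X. It had 1465 to 1730 normalised counts in donor macrophages with a median of 1568, and 1949, 1917, 1826 and 1655 in GVHD host microglia, with overlap (log2 fold change -0.20 ± 0.09, SE, limma adjusted p = 0.0982). With equal library totals Ctsz passed as lower (-0.37, adjusted p = 0.0036).

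Ctsd encodes cathepsin D, the aspartic protease of the lysosome. It had 8144, 5174, 5612, 5998, 14427 and 7283 normalised counts in donor libraries 1 to 6, and 9506, 8367, 9125 and 7870 in the GVHD host libraries. Donor library 5 had more than any GVHD host library, donor library 1 lay within the host range and the others lay below it. The log2 fold change was -0.22 ± 0.26 (SE, limma adjusted p = 0.539), and without donor library 5 it was -0.43 (adjusted p = 0.0488).

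In all, the donor and GVHD host libraries did not overlap for 3 genes with higher donor values and 4 with lower ones. Among all tested genes 13.3% and 14.6% separated in these directions.

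Donor macrophages were also set against host microglia of TCD mice, which were not given T cells. This comparison shares the donor libraries with the one above, so the values are given side by side and not as a repeat. Again 3 genes were higher in donor macrophages (Ctsb, Ctsc and Ctsh) and 3 lower (Ctsa, Ctsl and Cst3) by limma, where 18.4% of all tested genes were called higher and 18.6% lower. The median log2 fold change of the 9 genes was -0.153, against -0.006 over all tested genes.

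TCD host libraries 1 to 3 had 5786, 3897 and 4385 normalised counts of Ctsb, 1432, 1773 and 1816 of Ctsc, and 591, 623 and 604 of Ctsh. All lay below the donor range of the same gene. The log2 fold changes of donor macrophages over TCD host microglia were 0.98 ± 0.11 for Ctsb, 1.79 ± 0.17 for Ctsc and 0.53 ± 0.10 for Ctsh (SE, limma adjusted p = 1.82e-05, 2.72e-06 and 0.00126). Without TCD host library 1 they were 1.06, 1.59 and 0.52, and all 3 still passed. Donor and TCD host libraries did not overlap for these 3 genes and for the 3 lower ones, where 14.4% and 15.1% of all tested genes separated in these directions.

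Cst3 had 8915, 20434 and 26401 normalised counts in the TCD host libraries, Ctsl 439, 337 and 462, and Ctsa 1746, 1737 and 1996. All lay above the donor range, with TCD host library 1 closest to it for Cst3. The log2 fold changes were -1.998 ± 0.216 for Cst3, -1.20 ± 0.13 for Ctsl and -0.30 ± 0.09 for Ctsa (SE, limma adjusted p = 1.16e-05, 1.26e-05 and 0.016). Without TCD host library 1 Cst3 stood at -2.09 and Ctsl at -1.08, both past the test, while Ctsa at -0.29 was not (adjusted p = 0.0523), nor within the higher API number (-0.29, adjusted p = 0.0686) or without TCD host library 3 (-0.25, adjusted p = 0.0942). The Ctsa call was also lost under quantile normalisation (-0.25, adjusted p = 0.0705) and without the API covariate (-0.28, adjusted p = 0.0543).

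Ctss had 6093, 11904 and 13751 normalised counts in the TCD host libraries, Ctsd 14449, 6533 and 7899, and Ctsz 2139, 1524 and 1787. These ranges overlapped those of the donor libraries. Their log2 fold changes were -0.06 ± 0.20, -0.25 ± 0.29 and -0.15 ± 0.10 (SE, limma adjusted p = 0.847, 0.561 and 0.256), with 95% intervals of -0.49 to 0.37, -0.88 to 0.39 and -0.37 to 0.06. Without TCD host library 1 they were -0.28 for Ctss, -0.01 for Ctsd and -0.09 for Ctsz (limma adjusted p = 0.332, 0.983 and 0.598). With equal library totals Ctsz passed as lower (-0.31, limma adjusted p = 0.019).

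**Figure D2:**
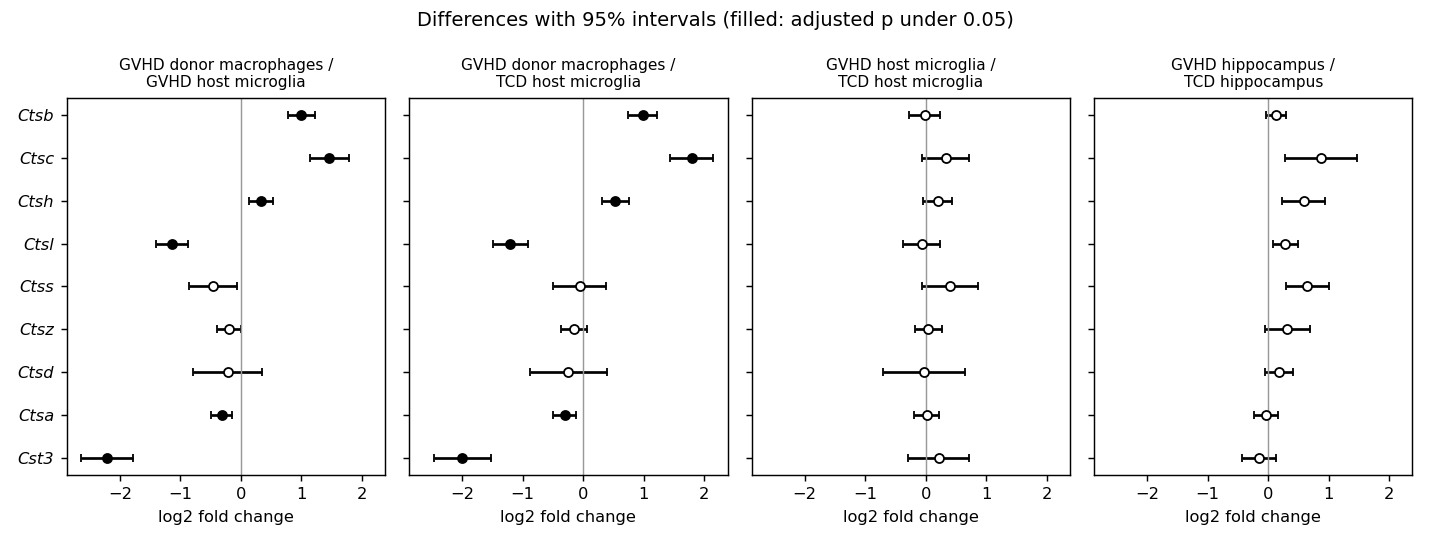
Log2 fold change of each gene with its 95% interval from limma in the 4 comparisons, each named with the group on top of the ratio first. Filled points passed at an adjusted p under 0.05, which holds for 6 genes in both donor comparisons and for none in the other comparisons.

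The comparison of GVHD with TCD host microglia asks whether resident microglia differ with the disease. None of the 9 genes passed by limma (adjusted p = 0.788 to 0.993), and 0 of 9 had an unadjusted p under 0.05, as 6.85% of all tested genes did. The test called 14 of all 13086 tested genes, 0.107%. The largest differences were those of Ctss at 0.40 ± 0.21, with a 95% interval of -0.07 to 0.86, and Ctsc at 0.33 ± 0.18, with an interval of -0.06 to 0.71 (log2 fold change, SE). Without TCD host library 1 they were 0.16 and 0.11.

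Cst3 averaged 21670 ± 5950 in GVHD host microglia and 18583 ± 8889 in TCD host microglia (normalised counts, SD, n = 4 and 3). Its log2 fold change of 0.22 ± 0.23 (SE, limma adjusted p = 0.901) had a 95% interval of -0.29 to 0.72, so a change of the size seen against donor cells lay outside it. For Ctsb the interval was -0.28 to 0.24, for Ctsl -0.37 to 0.24 and for Ctsa -0.19 to 0.22. That of Ctsd was the widest, -0.70 to 0.65. Ctsh was the only one of the 9 whose groups did not overlap, with all GVHD host values above the TCD host values, where 3.57% of all tested genes separated in this direction. Its log2 fold change was 0.20 ± 0.11 (SE, limma adjusted p = 0.793).

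Levels were compared between genes per kilobase of transcript. In both host groups Cst3 was first, with 25198 ± 6918 normalised counts per kb in GVHD host microglia and 21608 ± 10336 in TCD host microglia (SD, n = 4 and 3). This was the highest value per kb among 11742 genes with a matched length in both host groups, and Cst3 held place 9 in donor macrophages. Ctss followed with 10062 ± 1176 per kb in GVHD host microglia and 7810 ± 2949 in TCD host microglia, and was first of the 9 in donor macrophages at 7641 ± 1479, where Cst3 averaged 6013 ± 2133. Within each of the 6 donor libraries Ctss exceeded Cst3 per kb, by 1.08 to 2.12 times. Ctsd was next in all sorted groups, at 3654 ± 1618 per kb in donor macrophages, 4098 ± 347 in GVHD host microglia and 4526 ± 1989 in TCD host microglia.

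In donor macrophages Ctsc (1979 ± 148 per kb) and Ctsb (1865 ± 138) came next, with means that differed by less than either SD, followed by Ctsz (1098 ± 64.4), Ctsh (545 ± 53.1) and Ctsa (485 ± 24.2). In GVHD host microglia the order was Ctsz (1275 ± 91.5), Ctsb (949 ± 77.0), Ctsc (743 ± 201) and Ctsa (601 ± 41.3), then Ctsh (432 ± 29.5). TCD host microglia had Ctsz at 1261 ± 214, Ctsb at 989 ± 207, Ctsa at 591 ± 47.6, Ctsc at 586 ± 73.5 and Ctsh at 375 ± 10.1. Ctsl was last in all 3 groups, at 91.6 ± 8.31 per kb in donor macrophages, 202 ± 33.6 in GVHD host microglia and 209 ± 33.7 in TCD host microglia. Measured against the length of all annotated exons in place of the matched transcripts, the first 3 places of each group were the same, and in donor macrophages Ctsb came before Ctsz and Ctsc.

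**Figure D3:**
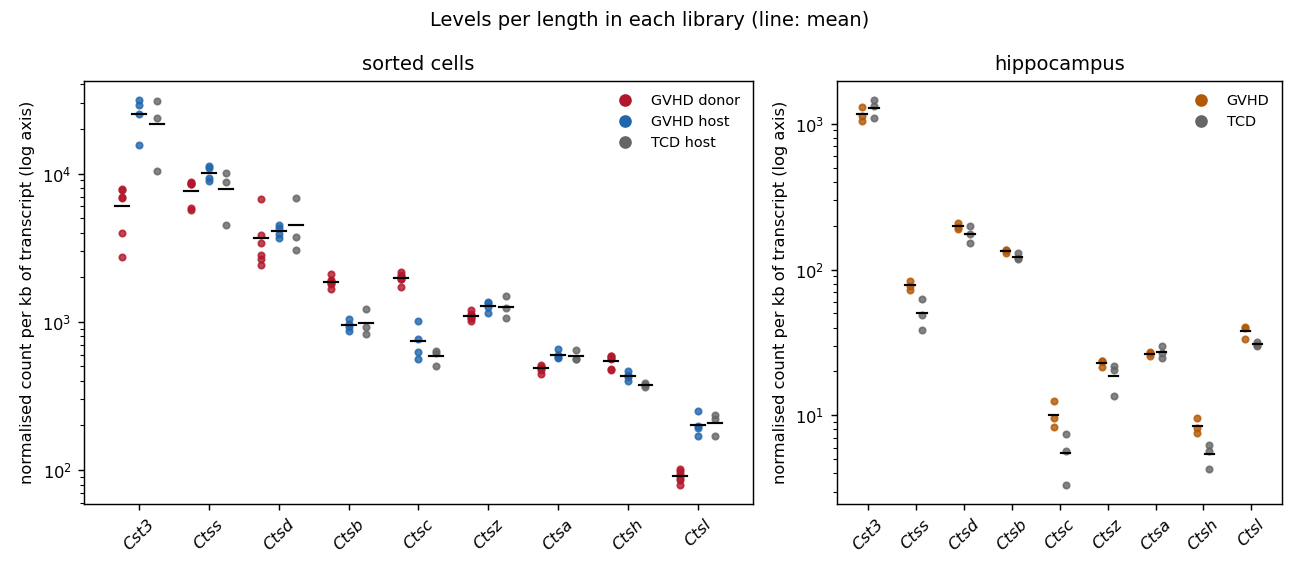
Normalised count per kb of transcript on a log axis, 1 point per library and a line at the group mean, for GVHD donor, GVHD host and TCD host cells (left panel) and GVHD and TCD hippocampus (right panel). Cst3 is above all other members in host microglia and hippocampus while Ctss is above Cst3 within each donor library, and Ctsl is lowest in the sorted cells.

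The balance between the proteases and their inhibitor was described as the ratio of the 6 cysteine cathepsins, summed per kb, to Cst3 per kb, within each library. It was 4.30, 2.10, 1.78, 1.80, 2.77 and 2.04 in donor libraries 1 to 6, against 0.860, 0.475, 0.482 and 0.498 in GVHD host libraries and 0.800, 0.498 and 0.442 in TCD host libraries. By the matched transcript lengths the ratio was thus above 1 in every donor library and below 1 in every host library. The matched length of Cst3 is 860 bases, and that of all its annotated exons is 1266. The ratio was not run with the lengths of all annotated exons. The side of 1 on which a host library falls can depend on that choice. The library of the lower API number had the highest ratio of each group. All 9 genes together made up 3.64% to 4.15% of the library total in donor macrophages, 5.39% to 6.43% in GVHD host microglia and 4.39% to 6.20% in TCD host microglia.

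**Figure D4:**
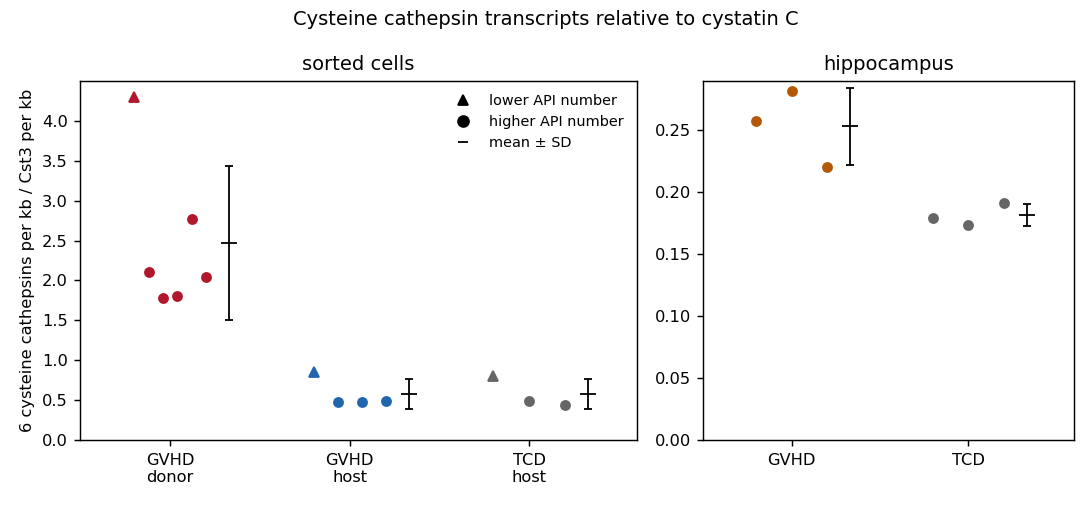
Ratio of the 6 cysteine cathepsins (Ctsb, Ctsc, Ctsh, Ctsl, Ctss and Ctsz, summed per kb) to Cst3 per kb in each library, with mean ± SD, for GVHD donor, GVHD host and TCD host cells (left panel) and for GVHD and TCD hippocampus (right panel, its own axis). Donor libraries lie at 1.78 to 4.30 and host libraries at 0.442 to 0.860.

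Libraries of 1 group varied together in some of the genes. In each of the 3 sorted groups the library of the lower API number had the lowest Cst3 and the highest Ctsb and Ctsz. Donor libraries 1 and 5 and TCD host library 1 had high Ctsd with low Ctss and low Cst3. Without donor libraries 1 and 5 the donor means were 6017 ± 909 for Ctsd, 11640 ± 237 for Ctss and 6313 ± 461 for Cst3 (normalised counts, SD, n = 4), compared with 7773 ± 3442, 10353 ± 2004 and 5171 ± 1834 with all 6. Ctsd was the most variable gene of the donor group and Ctsa the least, with a standard deviation of 44.3% and 4.99% of the mean.

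For each gene the pair of non-members with the most similar level over the 13 sorted libraries was found by Pearson correlation of log2 values, as a description. These libraries fall into donor and host cells, and how much of each value comes from that contrast was not tested. Cst3 was closest to Basp1 (r = 0.994) and Suclg2 (0.984), Ctsb to Asah1, acid ceramidase (0.993), and Cd93 (0.992), and Ctsc to Dennd2d (0.993) and the oestrogen receptor gene Esr1 (0.991). Ctsh was closest to Irf9, a factor of interferon signalling (0.991), and Ms4a4c (0.961), and Ctsl to Agmo (0.981) and St3gal2 (0.978). Ctsd was closest to Glb1, lysosomal beta-galactosidase (0.946), and Rps6kc1 (0.945), Ctss to Hadhb (0.963) and Znrf2 (0.943), Ctsa to Saraf (0.962) and Ercc5 (0.954), and Ctsz to Tmed3 (0.910) and Ano10 (0.896). Without TCD host library 1, the closest gene was Slc39a6 for Ctsa, Acp5 for Ctsc, Papss1 for Ctsl and 4933434E20Rik for Ctss, and was the same gene for the other members.

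Genes that work with the cathepsins were counted in the same fits. For donor macrophages against GVHD host microglia these called 19.4% of all tested genes higher and 19.2% lower. Of 4 other cathepsins tested, 2 were lower in donor macrophages than in GVHD host microglia and none was higher. Ctsf, cathepsin F, averaged 38.5 ± 7.92 in donor macrophages and 254 ± 29.0 in GVHD host microglia (normalised counts, SD, log2 fold change -2.74 ± 0.13, limma adjusted p = 1.26e-08), and Ctso averaged 149 ± 18.6 in donor macrophages and 264 ± 19.2 in GVHD host microglia (-0.84 ± 0.10, adjusted p = 1.73e-05). Both other measured cystatins differed, in opposite directions. Cst7, cystatin F, which inhibits cathepsin C and other cathepsins inside the endolysosome, was at 6.623 ± 1.496 in donor macrophages and 35.1 ± 5.93 in GVHD host microglia (-2.24 ± 0.16, limma adjusted p = 3.48e-07), and Cstb, the cytosolic cystatin B, at 70.3 ± 30.9 in donor macrophages and 39.0 ± 9.16 in GVHD host microglia (0.71 ± 0.25, adjusted p = 0.0369). The call of Cstb was lost with equal library totals and under quantile normalisation.

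Of 9 serpins and other protease inhibitors tested, 6 were higher in donor macrophages than in GVHD host microglia and none lower. Of these 6, Serpinb6b, Slpi and Serpinb1a averaged only 1.14 ± 0.482, 0.310 ± 0.594 and 0.294 ± 0.405 in GVHD host microglia (normalised counts, SD). In donor macrophages they averaged 10.2 ± 6.76, 8.34 ± 6.92 and 3.62 ± 3.18. At such host values a call of lower was hardly possible. Serpinb8 averaged 73.8 ± 14.9 in donor macrophages and 1.21 ± 1.18 in GVHD host microglia (log2 fold change 5.22 ± 0.34, limma adjusted p = 1.06e-07). Of 12 genes listed for lysosomal sorting of hydrolases, 3 were higher and 1 lower in donor macrophages than in GVHD host microglia. These counts became 2 higher and 2 lower under equal library totals, and 3 and 2 under quantile normalisation. Shares of this size lie near the 19.4% and 19.2% of all tested genes given above. The list, named sorting genes below, also holds Neu1 and Glb1, which encode hydrolases. Neu1 was 1 of the higher ones (0.47 ± 0.16, limma adjusted p = 0.0297), and its call was lost with equal library totals. The lower one was Sort1, sortilin, at 12.5 ± 3.05 in donor macrophages against 79.4 ± 4.02 in GVHD host microglia (-2.61 ± 0.16, adjusted p = 8.92e-08). Gnptab, which makes the mannose 6-phosphate tag, was among the higher ones (1.14 ± 0.23, adjusted p = 0.00186).

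Among 6 partners in antigen processing 3 were higher in donor macrophages than in GVHD host microglia and 1 lower. Cd74, the invariant chain that cathepsins S and L cut, averaged 51769 ± 10947 in donor macrophages and 6155 ± 3891 in GVHD host microglia (normalised counts, SD, log2 fold change 3.27 ± 0.30, limma adjusted p = 2.46e-06). H2-DMb1, a subunit of the peptide loader of MHC class II, was higher by 1.98 ± 0.13 (adjusted p = 1.48e-07). Lgmn, the asparaginyl protease legumain that processes several cathepsins, was lower, at 4213 ± 344 in donor macrophages against 8051 ± 746 in GVHD host microglia (-0.95 ± 0.10, adjusted p = 1.13e-05). Between the host groups, Cd74 was the 1 gene of these 6 lists that passed, at 6155 ± 3891 in GVHD host microglia and 845 ± 373 in TCD host microglia (2.82 ± 0.35, limma adjusted p = 0.00873). That call was lost with only these groups fitted (2.83, adjusted p = 0.158), with the title number as replicate block (2.83, adjusted p = 0.178), within the higher API number (2.29, adjusted p = 0.0829) and without TCD host library 2 (2.67, adjusted p = 0.0655). Of 6 genes listed as regulators of lysosomal genes, Tfec and Mitf were higher in donor macrophages than in GVHD host microglia (2.59 ± 0.23 and 0.66 ± 0.17, limma adjusted p = 1.91e-06 and 0.00821), and Tfeb did not pass (0.52 ± 0.20, adjusted p = 0.0598). The list, named regulators below, also holds Ctns, which encodes a lysosomal transporter. Against TCD host microglia, donor macrophages had 2 lower of the other cathepsins, 1 higher and 1 lower cystatin, 7 higher protease inhibitors, 2 higher and 1 lower sorting gene, 5 higher and 1 lower antigen processing partner and 2 higher regulators. With equal library totals these counts were 2 lower cathepsins, 1 lower cystatin, 6 higher inhibitors, 1 higher and 3 lower sorting genes, 4 higher and 1 lower antigen processing partners, and 2 higher and 1 lower regulators. Cstb, Serpinb9, Neu1 and Ifi30 lost their calls there, and Serpinb9 and Ifi30 also under quantile normalisation. No called gene of these lists changed direction under the other scalings in either donor comparison. As deposited, 18.4% of all tested genes were called higher and 18.6% lower in donor macrophages against TCD host microglia. Of the 7 inhibitors called higher there, Serpinb6b, Slpi and Serping1 averaged only 0.541 ± 0.0640, 0.545 ± 0.578 and 0.230 ± 0.326 in TCD host microglia (normalised counts, SD).

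The hippocampus comparison asks whether the genes differ in whole tissue between GVHD and TCD mice at day 80. None of the 9 passed over all 14404 tested genes by limma, where 69 genes or 0.479% did. At an unadjusted p under 0.05 there were 4 of the 9 (Ctss, Ctsh, Ctsc and Ctsl), all with higher values in GVHD hippocampus, and 17% of all tested genes in either direction. The median log2 fold change of the 9 was 0.287, against 0.005 over all tested genes. For 5 of the 9 (Ctsb, Ctsc, Ctsh, Ctsl and Ctss) every GVHD value lay above every TCD value, where 10.8% of all tested genes did so.

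Ctss had 104, 114 and 98.0 normalised counts in GVHD hippocampus, against 85.1, 66.3 and 52.4 in TCD hippocampus. The lowest GVHD library was above the highest TCD library. The log2 fold change was 0.65 ± 0.16 (SE, limma adjusted p = 0.0959), and without TCD hippocampus library 1 it was 0.82 and passed (adjusted p = 0.0331).

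Ctsh had 15.4, 13.2 and 12.2 normalised counts in GVHD hippocampus and 10.2, 9.15 and 6.97 in TCD hippocampus, a log2 fold change of 0.59 ± 0.15 (SE, limma adjusted p = 0.119). Ctsc had 27.2, 35.7 and 23.6 in GVHD hippocampus and 21.4, 16.3 and 9.54 in TCD hippocampus (0.88 ± 0.26, adjusted p = 0.153). For both genes the groups were apart, and TCD library 3 was the lowest. Ctsl had 77.8, 65.9 and 79.4 in GVHD hippocampus and 62.6, 59.9 and 59.3 in TCD hippocampus (0.29 ± 0.09, limma adjusted p = 0.162).

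Ctsb had 621, 641 and 642 normalised counts in GVHD hippocampus and 617, 559 and 567 in TCD hippocampus (log2 fold change 0.13 ± 0.07, SE, limma adjusted p = 0.395). The lowest GVHD value was barely above the highest TCD value. Ctsd had 447, 407 and 416 in GVHD hippocampus and 425, 374 and 323 in TCD hippocampus (0.19 ± 0.10, adjusted p = 0.402), and Ctsz had 34.2, 31.2 and 33.7 in GVHD hippocampus and 31.4, 29.5 and 19.5 in TCD hippocampus (0.32 ± 0.16, adjusted p = 0.364). Both overlapped between the groups.

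Cst3 had 969, 902 and 1122 normalised counts in GVHD hippocampus, against 1247, 1135 and 944 in TCD hippocampus. The groups overlapped, and the log2 fold change of -0.15 ± 0.12 (SE, limma adjusted p = 0.581) had a 95% interval of -0.43 to 0.13. Ctsa had 83.8, 83.1 and 78.7 in GVHD hippocampus and 92.4, 82.9 and 76.0 in TCD hippocampus (-0.03 ± 0.09, adjusted p = 0.893).

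**Figure D5:**
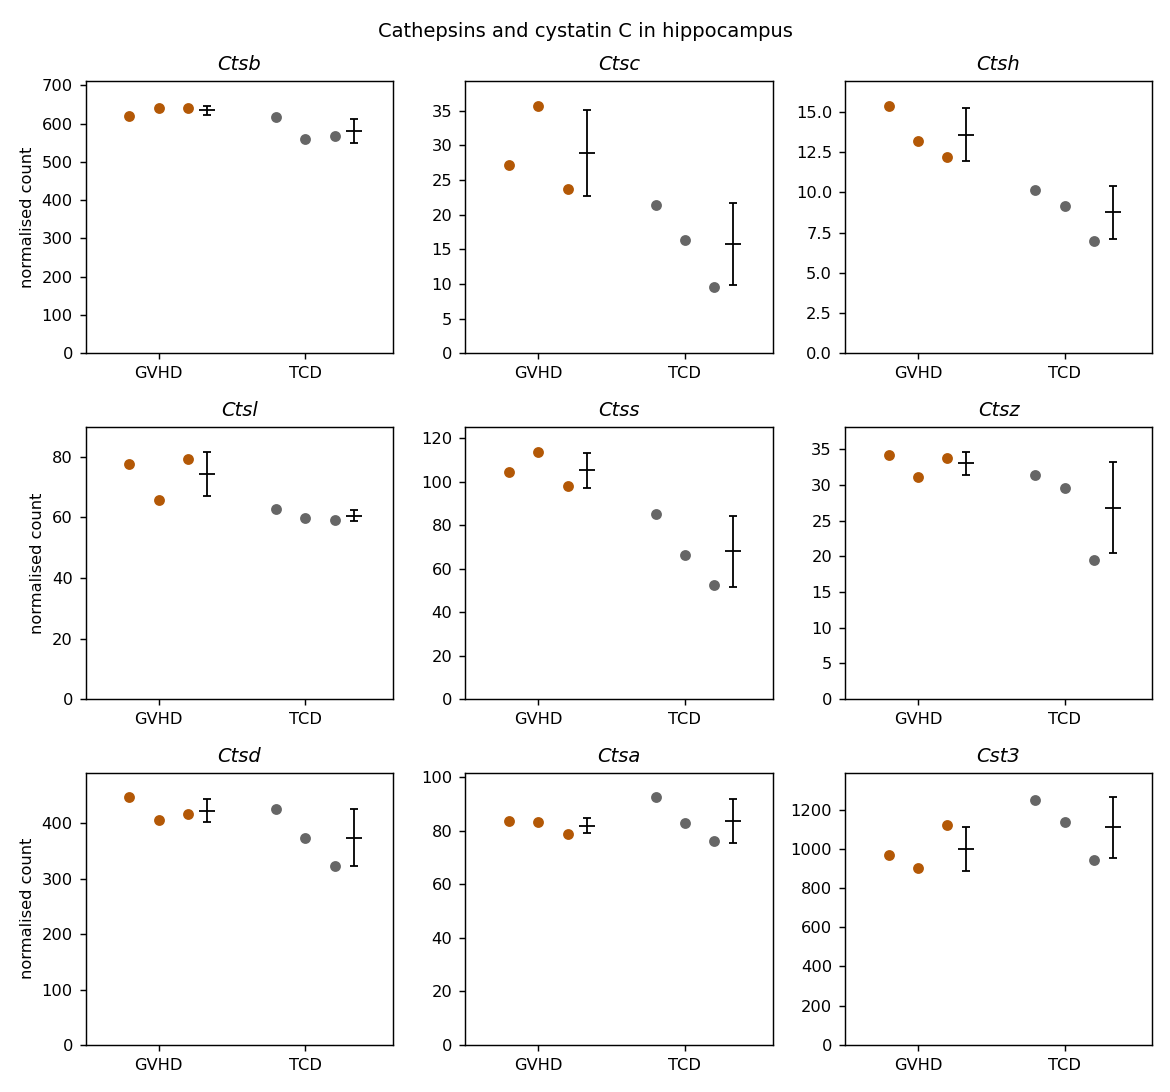
Normalised count of each gene in the 3 GVHD (left) and 3 TCD (right) hippocampus libraries, with mean ± SD. GVHD points lie above all TCD points for Ctsb, Ctsc, Ctsh, Ctsl and Ctss, and the groups overlap for Ctsz, Ctsd, Ctsa and Cst3.

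Per kb, Cst3 was first in hippocampus too, at 1160 ± 131 in GVHD and 1289 ± 178 in TCD hippocampus (SD, n = 3 each), places 8 and 7 among 14084 genes. Ctsd followed at 199 ± 9.91 in GVHD and 176 ± 24.0 in TCD hippocampus, then Ctsb at 134 ± 2.49 in GVHD and 123 ± 6.64 in TCD hippocampus, and Ctss at 77.8 ± 5.93 in GVHD and 50.2 ± 12.1 in TCD hippocampus. Ctsb thus stood above Ctss in hippocampus, while in each sorted group Ctss stood above Ctsb, although levels of separately normalised tables can be compared only as orders. The 6 cysteine cathepsins per kb over Cst3 gave 0.258, 0.281 and 0.220 in GVHD hippocampus and 0.180, 0.174 and 0.191 in TCD hippocampus.

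Other cell types of the tissue were measured beside these values. The summed level of 9 homeostatic microglia genes was 225 to 306 in GVHD hippocampus and 271 to 327 in TCD hippocampus, and none of them passed. That of 8 measured marrow-derived macrophage genes was 1630 to 2901 in GVHD hippocampus and 1378 to 1964 in TCD hippocampus, with 0 of 7 tested genes passing. Most of that sum was Apoe, at 2018 ± 571 in GVHD and 1656 ± 278 in TCD hippocampus (normalised counts, SD, n = 3 each), a gene astrocytes also express. Lyz2, lysozyme, averaged 112 ± 82.1 in GVHD and 24.8 ± 16.1 in TCD hippocampus (log2 fold change 2.08 ± 0.62, SE, limma adjusted p = 0.154). Ms4a7 averaged 3.52 ± 3.57 in GVHD and 0.941 ± 0.697 in TCD hippocampus, and Itgal 6.24 ± 3.02 in GVHD and 2.14 ± 0.820 in TCD hippocampus, the groups apart for Itgal and overlapping for Lyz2 by a narrow margin and for Ms4a7. The sum of 7 neuron genes was 9870 to 10134 in GVHD hippocampus and 11085 to 12718 in TCD hippocampus, without overlap, and that of 7 astrocyte genes was 5972 to 6656 in GVHD and 6275 to 7236 in TCD hippocampus, with none of either list passing. All 10 choroid plexus genes were higher, with sums of 1021 to 3607 in GVHD hippocampus and 13.6 to 72.4 in TCD hippocampus. The part of these cell types in the cathepsin and Cst3 values of hippocampus was not tested. Among the partner lists, none of the 4 other cathepsins, 2 cystatins, 10 protease inhibitors, 12 sorting genes, 5 antigen processing genes and 5 regulators tested passed in hippocampus. Mitf had the smallest adjusted p, 0.0852, at 13.2 ± 0.998 in GVHD and 8.26 ± 1.52 in TCD hippocampus (normalised counts, SD, n = 3 each).

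Some exons overlap those of genes on the opposite strand, and whether reads were counted by strand is not given in the sources used here. Ctsa shares 495 bases with Pltp and 324 with Neurl2, Ctsb 774 with Fdft1 and Ctsz 10 with Nelfcd. These 4 partners averaged 6.74 to 47.7 normalised counts in sorted libraries, far under the cathepsin beside them. In hippocampus Pltp averaged 69.0 and Fdft1 76.4, so reads of Pltp and Ctsa, which stood at 76.0 to 92.4, cannot be told apart there without strand. Ctsl shares 1742 bases with Gm47123 on the opposite strand, and on the same strand Ctsl shares 395 with Gm49230 and Ctsd 808 with Gm49369. None of these 3 genes is in either deposited table, so how reads were divided between them and the cathepsins is not known.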

How the data were processed

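RNA of 13 sorted-cell and 6 hippocampus libraries was measured by RNA sequencing of libraries labelled stranded. The deposited values are normalised counts, used here as a signal. Library totals were 1051505 to 1090630 in donor, 890564.5 to 961740 in GVHD host and 947439 to 954056 in TCD host libraries. Every donor total thus lay above every host total. In hippocampus the totals were 982114 to 988044 in GVHD and 1019598 to 1078636 in TCD libraries, also without overlap. Per the submitters' processing notes the authors used cutadapt 1.9, STAR 2.5.2a and RSEM 1.2.30 with GRCm38; the role of each, the annotation release and the scaling of the signal are not given in the sources used here. Reads per library were estimated from the smallest step of the values, but whole counts could not be recovered, so no count test was run. Identifiers were matched to GENCODE M21, with 203 sorted and 182 hippocampus identifiers unmatched.

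Groups were taken from sample titles. Log2 of the value plus 1 was fitted with limma 3.58.1 in R 4.3.3 (mean-variance trend, two-sided, Benjamini-Hochberg over all genes with at least 1 in at least 3 libraries, called at an adjusted p under 0.05). One model held all 13 sorted libraries with the API number as covariate, and another the 6 hippocampus libraries. The models were also run on simulated data with independent noise and no effect of API number or pairing, and no result here rests on that run. Fold changes are on the log2 scale of the value plus 1, with SE, and group values are mean ± SD. Transcript lengths are means of the protein-coding transcripts matched to RefSeq.

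The members, lists and tests were chosen with earlier results of these data known. All 9 members are given. The plan was to name from other lists at most the 3 genes of smallest p in a comparison. Genes outside that rule were also named, as examples of a marker list, for a large share of a summed level or for values at or near 0. Others were named for a call lost under another scaling, or where the name of their list does not describe them. For likeness the 2 genes with the highest correlation were named, among genes with a mean of at least 10. Numbers of the description field paired 3 donor and GVHD host libraries within the higher API number, whose deviations from their group means correlated at 0.308, 0.254 and 0.283, so blocked values are given where they change a call. Alternatives covered the pseudocount, filter, scaling, variance trend, GC content, API number, replicate block and each library left out.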

Additional observations from a re-analysis of the deposited data

Results flagged for a closer look

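Each gene was examined in the donor and GVHD host groups for a library far from the others of its group, which made 18 sets, and chance marks about 1 in 20. In 1 of them a library stood apart. Ctsd in donor library 5 had 14427 normalised counts, with a gap to the next donor library of 0.679 of the range of the group. TCD host library 1, in a group too small for this rule, had a similar Ctsd value of 14449.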

How the results depend on the processing

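Ctsb, Ctsc, Ctsl and Cst3 kept their direction and call between donor macrophages and both host groups under all settings run. The members lower in donor macrophages than in GVHD host microglia numbered 5 with equal library totals, against 3 as deposited. That scaling moved the median log2 fold change of all genes to -0.119 against GVHD hosts and -0.151 against TCD hosts, and the share of higher calls to 33.5% and 35.5%, against 50.1% and 49.7% as deposited. In hippocampus the share was 80.8% with equal totals and 76.9% under quantile normalisation, against 66.7%. As deposited, every donor total lay above every host total, and every GVHD hippocampus total below every TCD hippocampus total. Setting totals equal therefore lowers donor values against host values and raises GVHD against TCD hippocampus values. What made the totals unequal was not tested, nor was the cause of the change under quantile normalisation.

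Of all genes, the 14 called between the host groups became 2 with the title number as replicate block, 1 within the higher API number and 0 with only those groups fitted. With 1 library left out they ran from 6 (GVHD host 1, 2 or 4) to 28 (GVHD host 3), with 7 without TCD host 2. The 69 called in hippocampus became 4 with a pseudocount of 10, 39 under quantile normalisation, 0 without the variance trend, 16 with the replicate block, 45 with a GC correction and 15 with both. They numbered 0 without GVHD library 3 or TCD library 2, 2 without GVHD library 1 and 123 without TCD library 3. Members higher in hippocampus numbered 0 to 1 with 1 library left out, the 1 being Ctss. Title numbers did not pair the samples in hippocampus (correlations -0.163, -0.04 and -0.183) or between the host groups. Between donor and TCD host libraries, which come from GVHD and TCD mice, same-numbered pairs correlated at 0.585, 0.308 and 0.415. These values use deviations from the mean of the whole group, and both libraries of each pair carry the same API number. The part of the API number in them was not tested. Pairs by description number used deviations within the higher API number, so the sets of correlations are not alike. The block by title number changed no call of a member in any comparison.

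Differences that changed sign had not passed. Between the host groups Ctsa was -0.0354 under quantile normalisation, and within the higher API number Ctsb was 0.0705, Ctsd 0.232 and Ctsl 0.0777. With 1 library left out the ranges there were -0.0479 to 0.0642 for Ctsa, -0.105 to 0.0693 for Ctsb, -0.2102 to 0.229 for Ctsd, -0.2496 to 0.0661 for Ctsl and -0.051 to 0.117 for Ctsz. For donor against TCD host cells Ctss was 0.0406 under the title block, 0.0264 without the API term and -0.2803 to 0.103 with 1 library left out. In hippocampus Ctsa was 0.0488 with equal totals, 0.0179 under quantile normalisation, 0.0262 with the GC correction, with and without the replicate block, and -0.0959 to 0.0434 with 1 library left out.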
